A study of Mus musculus with 4 samples.

Results

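The clustered protocadherins are 58 of the 46406 rows of the table, all rows whose gene symbol begins with Pcdh followed by the name of an alpha, beta or gamma cluster member. The alpha cluster gave 14 rows, the beta cluster 22 and the gamma cluster 22. ATAC-seq, which cuts and tags open DNA with the Tn5 transposase, was run on J1 mouse embryonic stem cells grown without feeders. The 2 control libraries are labelled wild type and the 2 Zscan4 OE libraries carry the overexpression of Zscan4, a zinc finger protein of the early embryo. All 4 are labelled passage PN+8. The labels name neither the vector nor the promoter that drives Zscan4, nor whether the cells were 1 clone or separate cultures, so the spread between replicates may be technical.

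Clustered protocadherins are cell surface proteins that bind the same isoform on a facing membrane. In neurons, each cell uses a small, largely random set of isoforms, which lets branches of a cell recognise and avoid one another. In the alpha and gamma clusters each gene has its own first exon with its own promoter, and this exon is spliced to last exons that all genes of the cluster share. Genes of the beta cluster have their own large exon and no shared ones. Most alpha and gamma genes are alternate isoforms, chosen at random by each neuron, while the C-type genes at the end of both clusters are used more regularly. CTCF, cohesin and DNA methylation take part in this choice.

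The 3 clusters lie side by side on chromosome 18. On GRCm38, the build also called mm10, RefSeq places alpha rows at 36930285 to 37188897, beta rows 37264998 to 37521419 and gamma rows 37661775 to 37841873. The symbol Pcdha11 stood on 2 rows, of 5359 and 7535 bp, and they are named by these lengths. Feature lengths recovered from the values had a median of 5356 bp in alpha, 3714 bp in beta and 4819 bp in gamma rows. These fit exons and not whole genes, since Pcdha1 spans 257373 bp in RefSeq and had 5353 bp. Of the 22 beta genes, 10 had a recovered length within 20 bp of their RefSeq span and 11 were longer, by up to 5257 bp. Levels per kilobase use the recovered lengths.

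The libraries were shallow, with totals from 1061428 reads in control 1 to 4899494 in Zscan4 OE 2, of which 9.38% to 12.8% lay on exons. Levels are given as RPKM, reads per kilobase of feature and 1000000 reads of the library, after each value was put on its own library's total. Sums are given as RPM, reads per 1000000 reads of the library. A count of 0 allows up to 3 reads, which is 2.83 RPM in control 1 and 0.612 RPM in Zscan4 OE 2, for counting error only. Over the rows with 20 reads or more, the median level was 1.09, 0.871, 1.18 and 0.932 RPKM in controls 1 and 2 and Zscan4 OE 1 and 2, which is the order of every run of 4 values. Beside the stem cell label, 10 pluripotency genes together held 1.11 to 2.26 RPKM and were never at 0. Neuron genes held 0.578 to 0.820 RPKM with 2 of 10 at 0 in control 1, and fibroblast genes 0.687 to 0.940 RPKM, also with 2 of 10 at 0 in control 1. Gene by gene the lists overlapped, with Sox2 at 0.595 to 1.21 RPKM and the neuron gene Tubb3 at 1.47 to 2.52. A 0 in control 1 allows up to 3 reads, so these values do not settle the label. Open chromatin is not expression, so these levels describe accessibility of exons alone.

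Reads were few in alpha and beta rows, and many and nearly even in gamma rows. A gamma row had 18 to 34 reads in control 1, 16 to 29 in control 2, 32 to 53 in Zscan4 OE 1 and 28 to 59 in Zscan4 OE 2. An alpha row had 1 to 7, 2 to 10, 8 to 21 and 4 to 20 reads in the same order, and a beta row 0 to 6, 0 to 11, 1 to 26 and 1 to 19. Thus the lowest gamma row lay above the highest alpha and beta row in each library. The variance of the reads over gamma rows divided by their mean was 0.641, 0.449, 0.842 and 1.06. Independent counts of equal mean give about 1. Chi-square over its degrees of freedom, given the rows' lengths, was 0.446, 0.366, 0.709 and 0.641 for gamma rows, and 1.42 for reads pooled over libraries. The variance over the mean in alpha rows was 0.917, 1.23, 1.25 and 1.95, and in beta rows 1.29, 1.82, 4.2 and 3.37. Given length, gamma rows thus differed from one another by less than counting noise in each of the 4 libraries, though not in the pooled reads.

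**Figure D1:**
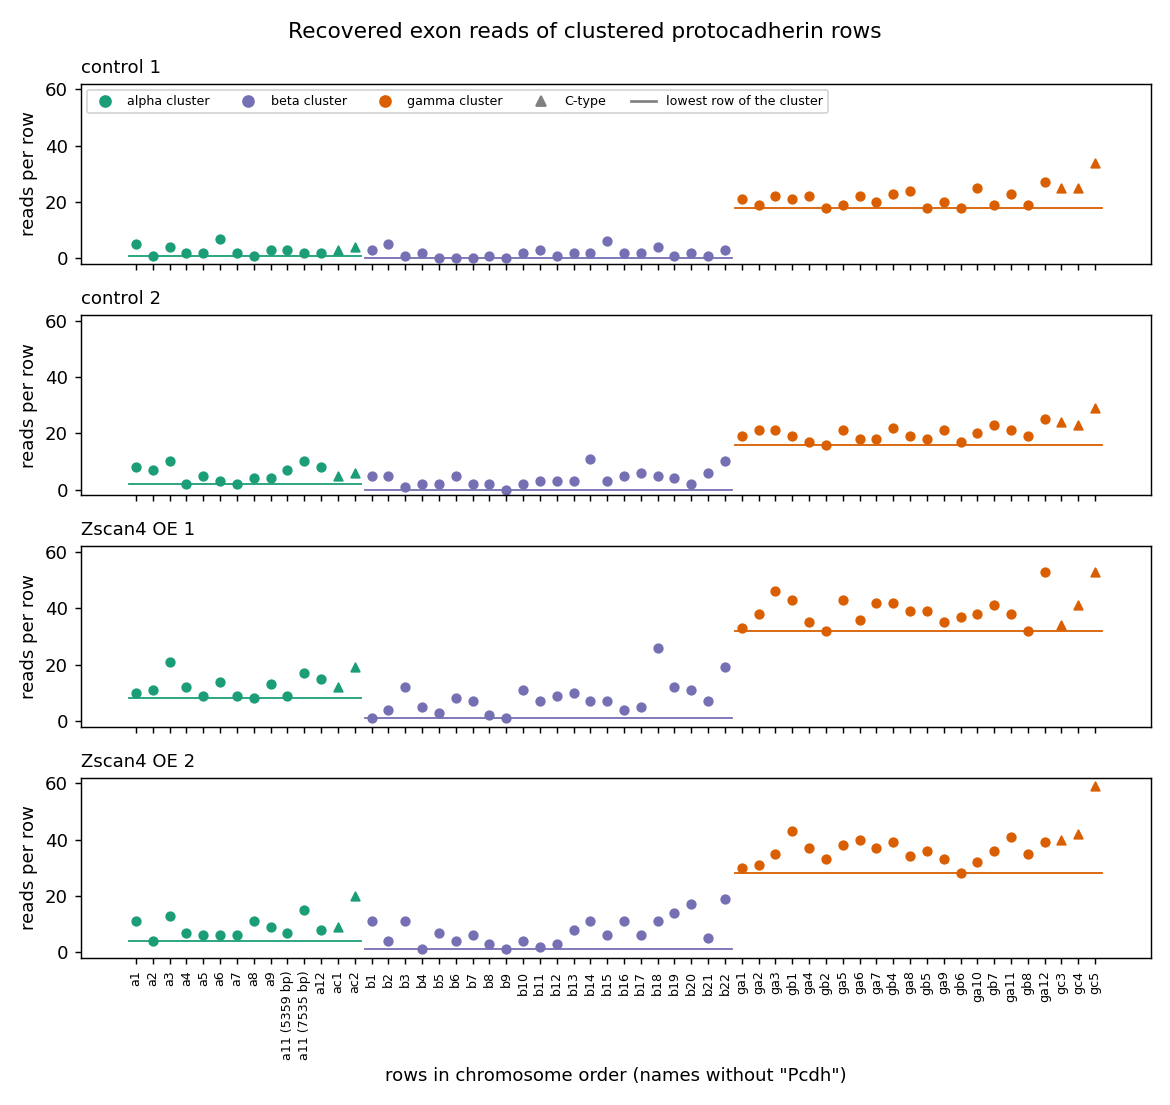
Recovered exon reads (y axis) of each clustered protocadherin row in chromosome order (x axis), with 1 panel per library; triangles are C-type genes and lines mark the lowest row of each cluster. Gamma rows form an even band from 18 to 34 reads in control 1, while beta rows there hold 0 to 6.

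The labels do not say how a read in a shared last exon was counted. Such a read may be dropped, because it fits several genes, or be counted in every row of its cluster. In the second case the lowest row sets a ceiling for the shared reads, 18, 16, 32 and 28 in the gamma cluster and 1, 2, 8 and 4 in the alpha cluster. If each read is counted either in all rows of its cluster or in 1, separate reads lie between the sum with the lowest row counted once and the full sum. Reads counted in only some of the rows could put their number lower. For gamma rows this range was 106 to 484 reads in control 1, 115 to 451 in control 2, 198 to 870 in Zscan4 OE 1 and 230 to 818 in Zscan4 OE 2. For alpha rows it was 28 to 41, 55 to 81, 75 to 179 and 80 to 132. Whether rows share reads was not tested, since the table holds no read positions.

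Alpha and beta clusters had like levels per kilobase, and the gamma cluster stood several-fold above both. Summed over its rows, the alpha cluster was at 0.496, 0.358, 0.637 and 0.346 RPKM. The beta cluster was at 0.437 (exact Poisson 95% interval 0.316 to 0.589), 0.323 (0.259 to 0.399), 0.533 (0.457 to 0.617) and 0.363 (0.310 to 0.423). The gamma cluster was at 3.91, 1.33, 2.07 and 1.43 RPKM. Compared within each library, where the library total cancels, beta was 0.882, 0.903, 0.836 and 1.051 times alpha. The geometric mean of these ratios was 0.915 (exact sign-flip permutation test, two-sided p = 0.25, n = 4). Beta was 0.112, 0.243, 0.257 and 0.254 times gamma, a geometric mean of 0.205, lower in 4 of 4 libraries. The exact permutation p of 0.125 is the smallest that 4 libraries allow, so neither ratio could pass 0.05.

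The gap to the gamma cluster was also computed without the reads that all gamma rows could share. In this setting the lowest row's reads were taken off each alpha and gamma row and lengths were left whole. It was chosen after seeing the data and lowers alpha and gamma but not beta by construction. The geometric mean of beta over gamma was then 0.985 (exact permutation p = 1, n = 4). That of beta over alpha was 1.66 (exact permutation p = 0.125, n = 4). A gamma row held 4, 4.5, 7.55 and 9.18 reads above the lowest on average in the 4 libraries. An alpha row held 1.93, 3.79, 4.79 and 5.43 reads above its own lowest row, and a whole beta row 1.95, 3.95, 8.09 and 7.50.

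**Figure D2:**
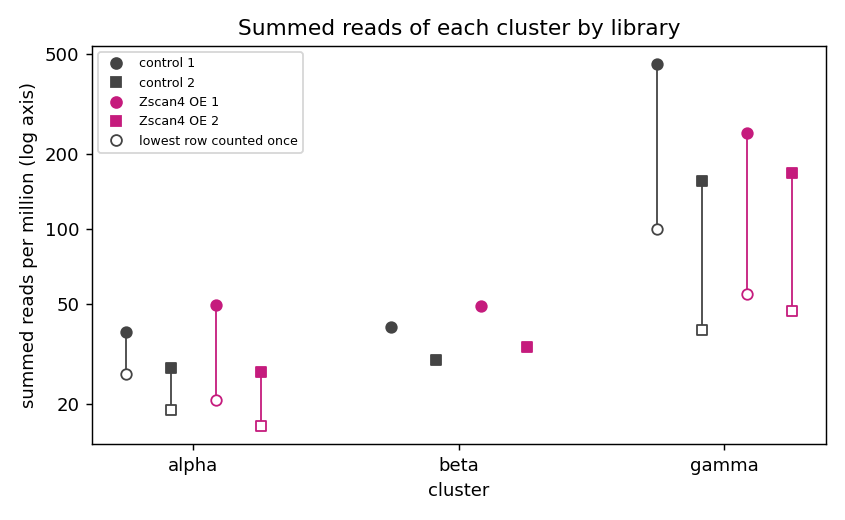
Summed RPM (y axis, log scale) of the alpha, beta and gamma clusters, with 1 symbol per library; open symbols count the lowest row of the alpha and gamma clusters once and a line joins them to the full sum. Control 1 has the highest gamma sum, 456 RPM, and stays highest at 99.9 RPM with the lowest row counted once.

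In the alpha cluster every row had at least 1 read in each library, and pooled levels over the 4 libraries ran from 0.286 to 0.722 RPKM with a median of 0.432. Pcdha3, an alternate isoform, was highest with 4, 10, 21 and 13 reads (pooled 0.722 RPKM, exact Poisson 95% interval 0.532 to 0.957). Pcdhac2, the C-type gene nearest the shared exons, had 4, 6, 19 and 20 reads. Its pooled level was 0.667 RPKM (0.494 to 0.882), and both Zscan4 OE values, 0.895 and 0.693 RPKM, lay above both controls, 0.640 and 0.351. Pcdhac1, the other C-type gene, had 3, 5, 12 and 9 reads, with overlapping groups.

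Together the 2 alpha C-type rows were 1.21, 0.926, 1.23 and 1.66 times the 12 alternate rows per kilobase, above 1 in 3 of 4 libraries. Pcdha6 had 7, 3, 14 and 6 reads, or 1.23, 0.193, 0.723 and 0.228 RPKM, so the replicates of each group lay far apart. The 7535 bp Pcdha11 row had 2, 10, 17 and 15 reads, or 0.250, 0.457, 0.626 and 0.406 RPKM, with overlapping groups. The pooled reads of alpha rows varied 2.45 times as much as counting noise by length (chi-square over its degrees of freedom). Some rows may share reads, so this is a description.

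Reads in beta rows ran from Pcdhb9 with 0, 0, 1 and 1 to Pcdhb22 with 3, 10, 19 and 19, the most of the cluster. Pcdhb9 stayed under the limit for a count of 0 in every library, and was the 1 clustered row that missed the filter on low values. Pooled levels ran from 0.0525 to 0.732 RPKM with a median of 0.356. Pcdhb18 was highest at 0.732 RPKM (0.536 to 0.976), with 4, 5, 26 and 11 reads, so 1 Zscan4 OE library gave most of them. Pcdhb20 followed at 0.721 RPKM (0.493 to 1.02), from 2, 2, 11 and 17 reads. Pcdhb15 had the highest mean over the libraries, 0.879 RPKM, which rests on control 1, where 6 reads made 2.02 RPKM. Its other libraries held 3, 7 and 6 reads, 0.369 to 0.693 RPKM.

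The spread of beta rows exceeded counting error in 3 of 4 libraries, control 2 being the other. Chi-square over degrees of freedom, given their lengths, was 2.04, 0.907, 3.37 and 2.65 in the 4 libraries, and 3.92 for pooled reads. Reads followed length in part, with Pearson's r of 0.58 over the 22 beta rows.

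Gamma genes fall into A, B and C subfamilies, which interleave except for the C-type genes at the end, and all stood at close levels within a library. In control 1 the 12 A rows were at 4.11 RPKM, the 7 B rows at 3.44 and the 3 C rows at 4.23. In control 2 they were at 1.37, 1.24 and 1.40, in Zscan4 OE 1 at 2.18, 1.98 and 1.90, and in Zscan4 OE 2 at 1.44, 1.37 and 1.54. Pooled levels over gamma rows ran from 1.32 to 2.11 RPKM.

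The C-type genes Pcdhgc3, Pcdhgc4 and Pcdhgc5 had 25, 24, 34 and 40 reads, 25, 23, 41 and 42, and 34, 29, 53 and 59 in the 4 libraries. Pcdhgc5 had the most reads of any clustered row, 175, on the longest gamma feature, 7627 bp, and its pooled level of 1.84 RPKM (1.58 to 2.13) lay close to the gamma median of 1.83. Among alternate genes Pcdhga12 had the most reads, with 27, 25, 53 and 39 over 6664 bp. The highest mean levels were those of Pcdhga3 (4.39, 1.53, 2.70 and 1.51 RPKM), Pcdhga11 (4.56, 1.52, 2.22 and 1.76) and Pcdhga10 (4.98, 1.46, 2.23 and 1.38). In all 3 of them control 1 was highest, as in all 22 gamma rows, and control 2 and Zscan4 OE 2 were lowest. These means thus rest most on control 1. Pooled over the libraries the 3 rows were at 2.11, 2.07 and 1.95 RPKM in this order. Pearson's r of reads with length was 0.71 over the 22 gamma rows, which may share reads.

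Control 1 stood apart from the other libraries in the gamma cluster. It held the highest RPM in 22 of 22 gamma rows, in 3 of 13 alpha rows and in 2 of 10 beta rows with 20 reads or more, against 35.5% of the 19011 tested rows with as many reads. Its RPM was 2.26 to 3.54 times that of control 2 over gamma rows, with a median of 2.96, and a ratio at or above that median was found in 11.6% of those tested rows. The median ratio to control 2 in alpha rows was 1.41. Because gamma rows may share reads, the 22 rows are not 22 separate observations, unlike most rows behind these shares. Gamma rows held 85.2% of all clustered protocadherin reads in control 1, against 72.9% in control 2, 70.9% in Zscan4 OE 1 and 73.4% in Zscan4 OE 2. These shares do not depend on library totals. With the lowest row counted once they were 59.9%, 44.7%, 43.9% and 48.4%, with control 1 still highest. Control 1 was also the shallowest library, and the part of depth in this was not tested.

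Zscan4 overexpression was compared with control to ask whether the accessibility of these exons rose or fell. No clustered row passed. Of the 57 rows tested with limma, 0 had an adjusted p under 0.05, and over all 42989 tested rows 0% were called higher and 0% lower. At an unadjusted p under 0.05 the count was 0 of 57 clustered rows, against 5.09% of all tested rows called higher and 1.33% lower (6.42% in all), and voom on the 45 rows with 20 reads or more also gave 0 at either threshold. At the unadjusted threshold, limma on rows with 20 reads or more gave 2 of 45 clustered rows, against 956 of all 19012. With no filter it gave 1 of 58, against 3635 of 46406, and as deposited 3 of 57, against 6265 of 43469. At the adjusted threshold these settings gave 0 clustered rows. On simulated reads for this comparison the test recovered 0% of 100 genes changed 16-fold over 40224 rows, so an empty list says little. With 20 reads or more it recovered 53% of them over 19013 rows and 0% of those changed 4-fold. Simulated replicates of a group were drawn around the same rate, whereas control 1 was 2.26 to 3.54 times control 2 over gamma rows. The simulated recovery may thus overstate what the test could find here.

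Differences in alpha and beta rows went both ways. A log2 difference is that of log2(RPKM + 0.1), Zscan4 OE minus control, and understates changes of low rows. It was above 0 in 10 of 14 alpha rows and 12 of 21 beta rows, against 62% of all tested rows, in 6 and 11 with each library centred on its median, and in 1 and 7 with quantile normalization. The medians were 0.16 and 0.31, against 0.28 over all tested rows, and values ran from −0.45 to 0.72 in alpha and from −1.36 to 1.67 in beta rows. Both Zscan4 OE libraries lay above both controls in 2 alpha and 6 beta rows, against 19.6% of all tested rows. They lay below both controls in 0 alpha and 3 beta rows, against 10.1%. Without control 2 the alpha median was −0.0009, and without Zscan4 OE 1 the alpha and beta medians were −0.30 and −0.17.

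Within the beta cluster, Pcdhb3 had the largest positive statistic, from 1 read in each control to 12 and 11 in Zscan4 OE. Its levels were 0.249 and 0.0909 RPKM against 0.879 and 0.593, and the groups did not overlap. The log2 difference was 1.67 (SE 0.766, unadjusted p = 0.0872, limma adjusted p = 0.869), so it did not pass. Pcdhb20 came next with 0.529 and 0.193 RPKM against 0.857 and 0.975, a log2 difference of 1.24 (SE 0.679, limma adjusted p = 0.869). The largest negative statistics belonged to Pcdhb2, with 5 and 5 reads against 4 and 4, and Pcdhb1, with 3 and 5 against 1 and 11. Pcdhb2 was at 1.67 and 0.612 RPKM without and 0.394 and 0.290 with Zscan4 overexpression, a log2 difference of −1.36 (SE 0.714, limma adjusted p = 0.869).

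In the alpha cluster the largest positive statistics were those of Pcdhac2 (log2 difference 0.62, SE 0.605) and Pcdha8 (0.72, SE 0.752), with a limma adjusted p of 0.869 each. Pcdha8 had 1, 4, 8 and 11 reads, and its groups did not overlap. Pcdha1, the first alpha gene, and the 5359 bp Pcdha11 row had the largest negative ones, −0.45 and −0.37. Their reads were 5, 8, 10 and 11, and 3, 7, 9 and 7, with overlapping groups in both.

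**Figure D3:**
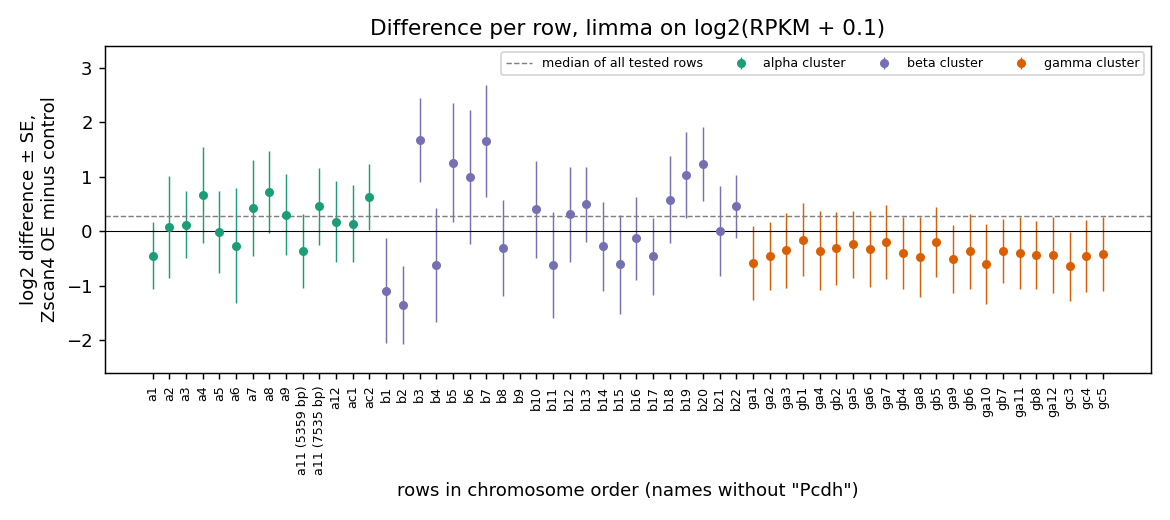
Log2 difference of Zscan4 OE minus control (y axis, points, with bars of 1 SE from limma) for the tested rows in chromosome order (x axis). Beta rows scatter from −1.36 to 1.67, and gamma rows lie close together below 0 with all 4 libraries and rescaled values.

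Gamma rows all had negative differences with the 4 libraries, and all turned positive without control 1. The difference was below 0 in 22 of 22 rows, from −0.64 to −0.16 with a median of −0.40, or −0.68 relative to all tested rows. Gamma rows may share reads, so counts of 22 of 22 here are not 22 separate observations. Groups overlapped in 22 of 22 rows, because control 2 lay below Zscan4 OE 1. Most tested rows overlapped too, since both Zscan4 OE libraries lay above both controls in 19.6% and below both in 10.1%. Pcdhgc3 had the largest negative statistic, with control values of 4.28 and 1.503 RPKM against 1.71 and 1.48 in Zscan4 OE. Its log2 difference was −0.64 (SE 0.636, limma adjusted p = 0.869). Pcdhga1 was next at −0.58 (SE 0.678, limma adjusted p = 0.873). Without control 1 the difference was above 0 in 22 of 22 gamma rows and the median was 0.36, against 0.29 over all rows. Without Zscan4 OE 2 it was above 0 in 6 of 22, with a median of −0.16, and without control 2 or Zscan4 OE 1 in 0 of 22. In the values as deposited, before rescaling, 17 of 22 gamma rows were above 0. Their median was then 1.08, against 1.40 over all rows.

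**Figure D4:**
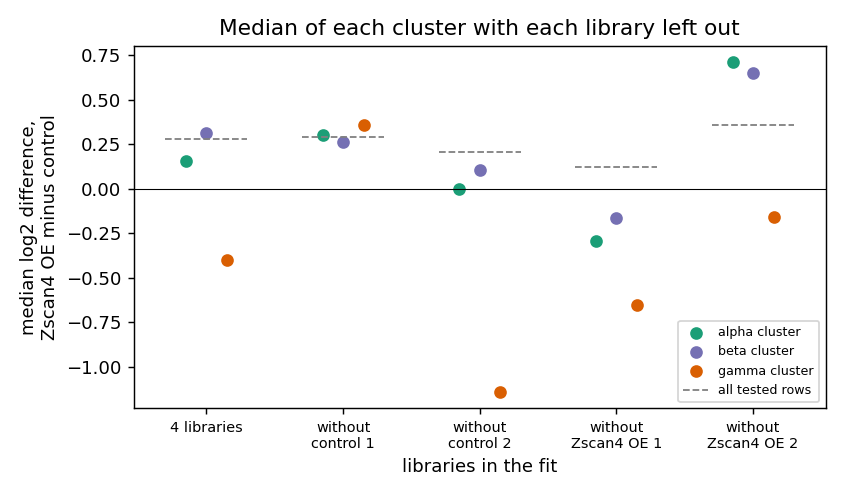
Median log2 difference of Zscan4 OE minus control (y axis) of each cluster's tested rows, with all libraries and with each left out in turn (x axis); dashed lines mark all tested rows. The gamma median is −0.40 with 4 libraries and 0.36 without control 1.

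Summed reads per cluster gave no group difference beyond the spread of replicates. Alpha rows summed to 33.3 ± 7.59 RPM for control and 38.3 ± 16.1 for Zscan4 OE (SD, n = 2, ratio 1.15, exact permutation p = 1). Beta rows summed to 35.2 ± 7.46 and 41.5 ± 11.1 RPM (SD, n = 2, ratio 1.18, exact permutation p = 0.667). Gamma rows summed to 305.7 ± 213 and 204 ± 52.5 RPM (SD, n = 2, ratio 0.668, exact permutation p = 1), and the ratio was 1.31 without control 1. All of these tests are two-sided, and 2 libraries against 2 cannot give a p under 0.333. With the lowest row counted once the alpha sums were 22.7 ± 5.26 and 18.6 ± 3.16 RPM, a ratio of 0.819, so the direction of that small difference turned. The beta share of clustered reads was 10.8% ± 4.59 for control and 14.7% ± 0.206 for Zscan4 OE (SD, n = 2, exact permutation p = 0.333), with both Zscan4 OE libraries above both controls. It differed by 3.84 percentage points, by 0.598 without control 1, and by 8.03 with the lowest row counted once.

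Genes around the clusters had higher levels per kilobase than the summed alpha and beta rows in each library. The 16 neighbours, of which Pcdh1 and Pcdh12 are non-clustered protocadherins, were at 1.29, 0.999, 1.30 and 0.959 RPKM in the 4 libraries. Differences were above 0 in 9 and below 0 in 7 of them, and 0 passed. Slc25a2, a mitochondrial ornithine carrier gene, and Taf7, a gene of the general transcription factor TFIID, lie between the beta and gamma clusters. Taf7 had 2, 6, 15 and 17 reads, that is 0.598 ± 0.0390 RPKM for control and 1.16 ± 0.148 for Zscan4 OE (SD, n = 2). Its log2 difference of 0.84 (SE 0.492, limma adjusted p = 0.869) was the largest statistic among neighbours. Slc25a2 had 2, 1, 5 and 8 reads. Pcdh1, a non-clustered protocadherin downstream of the gamma cluster, had the largest negative statistic, with 6, 28, 16 and 19 reads and a log2 difference of −0.72 (SE 0.588, limma adjusted p = 0.869).

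Related genes gave no call either. The 13 non-clustered protocadherin and related genes, which again include Pcdh1 and Pcdh12, were at 0.645, 0.552, 0.627 and 0.578 RPKM, between the beta and the gamma cluster in each library, with 6 positive and 7 negative differences. The 18 classical cadherin genes had 12 positive and 6 negative, and the 9 giant cadherin genes of the Fat, Dachsous and Celsr families 4 and 5. Of the 22 genes for CTCF, cohesin, DNA methylation and other silencing factors, 12 were positive and 10 negative. Of the 16 genes for partners inside the cell, such as Ptk2 and the WAVE complex, 10 were positive and 6 negative. In each of these lists 0 passed at an adjusted p under 0.05, as over all tested rows (limma). At an unadjusted p under 0.05 it was also 0, against 6.42% of all tested rows. For lists of 9 to 22 genes a count of 0 lies near that share. Their medians were −0.0021, 0.16, −0.07, 0.23 and 0.37 in this order, against 0.28 over all tested rows.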

How the data were processed

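The deposited RPKM values were made by the authors with Trimmomatic, Bowtie2 and featureCounts on build mm10, per the submitters' processing notes; versions, read filters, annotation and the counting of reads that overlap several genes are not stated by the labels. Each value was a whole number of reads divided by a feature length and by 1 of 8 library totals that rotated over rows and columns. They were recovered from 2398 short RNA genes of known length. For each of the 38361 rows with at least 2 nonzero values, exactly 1 rotation yielded whole reads and a whole length. On simulated data 100% of rotations were right, and lengths and reads were right in 96.53% of rows each. Totals were placed on libraries, among the 8 orders the rotation allows, where exon shares were most alike (ratio 1.36, otherwise 4.17 or more). Values were then rescaled.

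Rows with a mean of at least 0.1 RPKM were tested with limma 3.58.1 (R 4.3.3) on log2(RPKM + 0.1), with trend and no covariate, and adjusted by Benjamini-Hochberg over all tested rows at 0.05. Cluster sums were compared by exact permutation over libraries. Rows named were all C-type genes and, per cluster, the 3 with the highest mean RPKM, the 3 with the most reads and the 2 with the largest statistic in each direction. Members and lists were chosen with earlier results of these data known. Tables used Python 3.11.15. No sequence is printed.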

Additional observations from a re-analysis of the deposited data

How the results depend on the processing

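No clustered row was called in any of the 13 alternative fits, while over all rows the calls were 4 higher and 1 lower (5) at 20 reads or more, and 1 lower with voom. Leaving out a library gave 0 to 4536 calls, namely 4530 higher and 6 lower with Zscan4 OE 1 left out, and 3889 and 2 with Zscan4 OE 2 left out. In these fits the spread comes from the 2 controls alone, and the lone Zscan4 OE library is assumed to vary like them. With the replicate number as a block (replicate block) 0 rows were called, and cluster ratios were 1.11, 1.17 and 0.754; same-numbered libraries deviated together with r = 0.04 over 42989 rows and 0.13 over the 19011 with 20 reads or more. Both replicate 1 libraries had a higher share of reads on exons (12.4% and 12.8%) than both replicate 2 libraries (9.38% and 9.93%). With 2 numbers and no shared origin in the labels, these were not taken as pairs. As deposited the alpha and beta ratios were 2.53 and 2.52 and the gamma ratio turned to 1.82. After rescaling, the gamma ratio ran from 0.448 to 1.31 with a library left out; the alpha ratio ran from 0.810 to 1.49 and the beta ratio from 0.956 to 1.40. With the lowest row counted once the alpha ratio was 0.819 and the alpha share differed by −1.87 percentage points, not 3.06; with the lowest row taken off, beta over alpha was 1.66. Both settings take reads off alpha rows by construction. The median of all rows moved from 0.28 to 1.40 as deposited, 0.10 with pseudocount 1, 0.00 centred and −0.04 with quantile normalization, and the share of higher rows at an unadjusted p under 0.05 from 79.3% to 97%, 67.5% (centred) and 60.9% (quantile).

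Log2 differences of named rows turned sign as follows, and the cause was not tested. As deposited they were 1.03 for Pcdhb15, 0.26 for Pcdhb2, 0.00699 for Pcdhb1, 0.496 for Pcdhga10, 1.53 for Pcdhga12, 0.68 for Pcdhgc5, 1.19 for Pcdhga11, 1.46 for Pcdhga3 and 0.52 for Pcdh1. With quantile normalization they were −0.40 for the 7535 bp Pcdha11 row, −0.45 for Pcdha3, −0.40 for Pcdhac1 and −0.33 for Pcdha8, and centred −0.15 for Pcdha3 and −0.14 for Pcdhac1; Pcdha6 was 0.33 with voom. With a library left out the ranges were −1.21 to 0.30 for Pcdhgc4, −1.70 to 0.48 for Pcdhb15, −0.17 to 1.32 for Pcdhb18, −2.21 to 0.0185 for Pcdhb1, −1.45 to 0.25 for Pcdhga10, −0.38 to 0.62 for Pcdha3, −1.18 to 0.31 for Pcdhga12, −1.22 to 0.39 for Pcdhgc5, −1.17 to 0.36 for Pcdhga11, −1.37 to 0.0811 for Pcdhgc3, −1.34 to 0.18 for Pcdhga1, −0.22 to 0.49 for Pcdhac1, −1.35 to 0.83 for Pcdha6, −1.08 to 0.38 for Pcdhga3 and −0.30 to 1.77 for Slc25a2. The alternative with unshared exon lengths was not run, as no exon annotation was used here.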
